A study of Mus musculus with 6 samples.

Results

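Genes that mark endothelial cells, endothelial tip cells and pericytes were followed in newborn mouse retinas in which Pdgfrα-Cre deletes the transcription factor gene Lhx2. The set held 37 genes of the 39179 listed in each count file, chosen by name as vascular markers: 25 endothelial genes, 3 tip cell genes and 9 pericyte genes. Bulk RNA-seq had been made from 6 retina samples taken at postnatal day 0.5. The 3 cKO samples were Lhx2 lox/lox; Pdgfrα-Cre, and the 3 control samples were Lhx2 lox/lox without the Cre, so every sample carried the floxed Lhx2 allele, although the controls are named wild type in the series text. Both groups were of mixed strain, mainly CD-1, and the series text counts 3 mice in each. Whether retinas were pooled, whether mice were littermates and which retinal cells the Pdgfrα-Cre driver reaches were not given in the sources used here. The title of the series names Müller glia, the principal glial cells of the retina, as the subject of the study.

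Retinal vessels are tubes of endothelial cells wrapped by pericytes. In the mouse the retinal plexus starts to spread from the optic nerve head around birth, led by migrating tip cells that follow VEGF, while the older hyaloid vessels, which run between lens and retina, are still present and later regress. Endothelial cells release PDGF-B, which recruits pericytes through the receptor Pdgfrb, and the angiopoietin receptor Tek, Notch ligands and Norrin signalling shape the plexus and its barrier. Since bulk RNA was measured, more cells of a type and more RNA per cell cannot be told apart.

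Genes took 31483170 to 66947478 counts per library. Lhx2, the deleted gene, had 252, 287 and 224 CPM (counts scaled to library size and composition) in cKO retinas, against 399, 266 and 258 CPM in control retinas. The groups overlapped, and the log2 fold change was −0.40 (SE 0.10, edgeR adjusted p = 0.0338). That call was lost when cKO 2, cKO 3, control 2 or control 3 was left out, with edgeR adjusted p of 0.0602, 0.0727, 0.414 and 0.0794 in that order, and also with genotype alone in the model (edgeR adjusted p = 0.817) and with sex added as a term (edgeR adjusted p = 0.371). Summed over 5 neural retina markers (Rax, Crx, Pou4f2, Isl1 and Sox2), levels were 806 to 842 CPM in cKO retinas and 842 to 979 CPM in control retinas, so neural retina RNA was present in all 6 libraries. Of these markers 2 rose and 2 fell with library set in the model, at log2 fold changes from −0.75 to 0.88. The libraries fell into 2 sets that the labels do not name. Set A held cKO 1, cKO 2 and control 2, with 3.13% to 3.20% of all counts ambiguous between genes and 1.15% to 1.79% of gene counts mitochondrial, and set B held cKO 3, control 3 and control 4, with 2.63% to 2.69% ambiguous and 7.14% to 9.55% mitochondrial. The line between them was drawn at 2.9% ambiguous counts, and the values nearest to it were 3.13% in cKO 2 and 2.69% in control 4. Set entered the model as a term. Y-linked genes were at male levels in control 2 and control 4 and near 0 in control 3 and all 3 cKO libraries. Lens genes were abundant in all cKO libraries and close to absent in controls, with the values given among the markers of other cells.

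Most of the endothelial genes, 1 of 3 tip cell genes and 4 of 9 pericyte genes were more abundant in cKO retinas. With library set in the model, 23 of the 35 members that could be tested rose and 2 fell (edgeR quasi-likelihood test, adjusted p under 0.05 over all 16691 genes tested), where 6.36% of all genes tested rose and 5.63% fell. The median log2 fold change of the tested members was 1.86, against −0.00 for all genes tested. By cell type, 18 of 23 tested endothelial genes rose and none fell, and 22 had an unadjusted p under 0.05 for a rise, as did 13.3% of all genes tested. No tip cell gene and 2 pericyte genes, Cox4i2 and Ndufa4l2, fell. The 23 rises ran from 0.84 for Pdgfrb to 4.58 for Esm1 on the log2 scale.

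**Figure D1:**
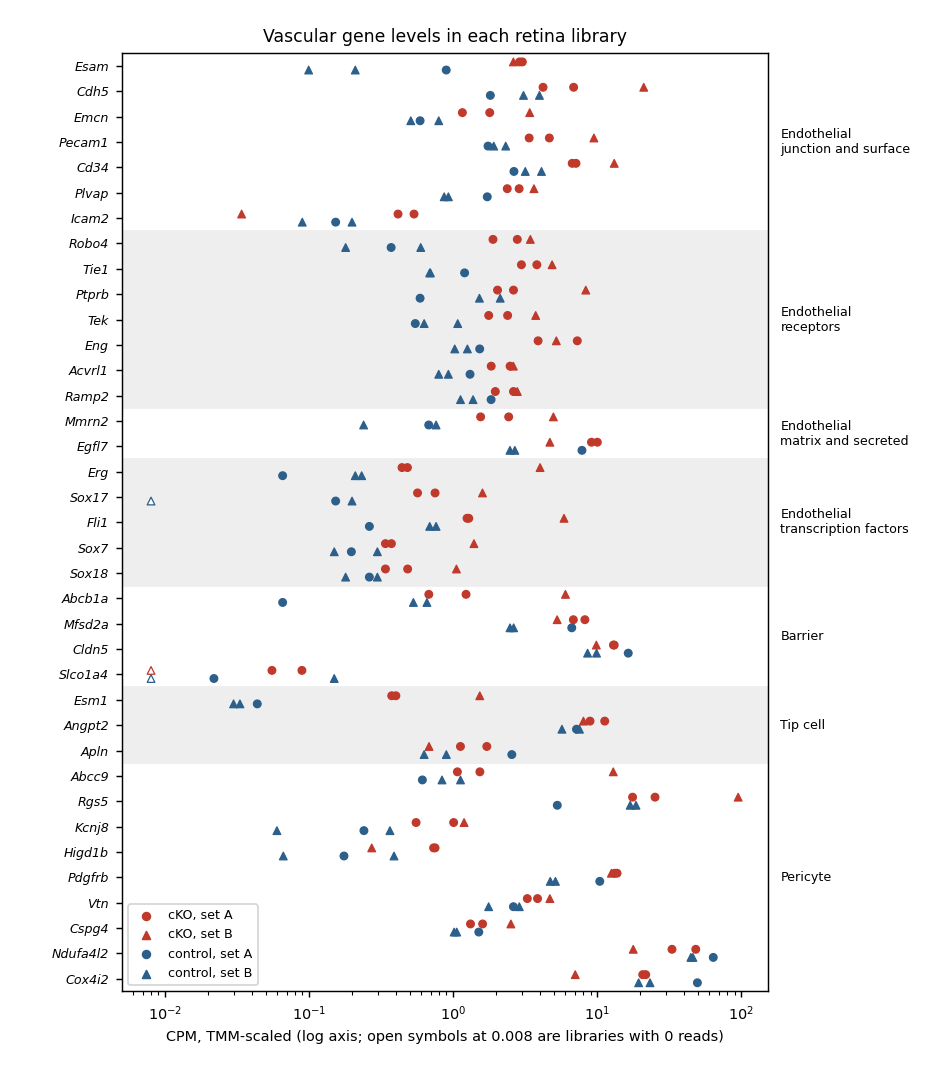
Level of each of the 37 vascular genes in each library, in CPM on a log axis, with genes grouped by role; red symbols are cKO and blue symbols control, circles are set A and triangles set B. In Cdh5 the cKO symbols lie at 4.21, 6.87 and 21.1 CPM, right of the control symbols at 1.81, 3.08 and 3.98 CPM, and in Cox4i2 the set B cKO symbol at 7.05 CPM lies left of every control symbol.

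Many members were expressed near the limit of testing. The filter on low counts asked for at least about 0.251 CPM in 3 libraries. In all, 11 members met it only through the cKO libraries, so these had to be higher there to be tested at all. They were Esam, Robo4, Mmrn2, Erg, Sox7, Sox17, Sox18, Abcb1a, Esm1, Kcnj8 and Higd1b. Among the other 24 tested members, which would have passed on the controls alone, 14 rose and 2 fell. With no filter all 37 members entered the fit, and 24 rose and 2 fell, where 5.79% of 25408 genes rose and 6.27% fell. The member added was Vtn (edgeR adjusted p = 0.0382). Icam2 and Slco1a4 did not pass the filter.

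The genes of endothelial junctions and cell surface rose together, with 6 of 6 tested members called. Cdh5, the VE-cadherin of endothelial adherens junctions, had 4.21, 6.87 and 21.1 CPM in cKO retinas, against 1.81, 3.08 and 3.98 CPM in control retinas. All 3 cKO libraries lay above all 3 controls, and cKO 3 stood highest. The log2 fold change was 2.13 (SE 0.27, edgeR adjusted p = 0.00253). The difference was 1.56 within set A and 2.59 within set B. Pecam1, the platelet and endothelial adhesion molecule CD31, had 3.37, 4.66 and 9.50 CPM in cKO retinas and 1.75, 1.92 and 2.32 CPM in control retinas. Its groups did not overlap either, and the log2 fold change was 1.70 (SE 0.27, edgeR adjusted p = 0.00588). Esam, an adhesion molecule of endothelial tight junctions, showed the tightest cKO values of this group, at 2.89, 3.03 and 2.62 CPM, against 0.896, 0.209 and 0.0994 CPM in control retinas. Its log2 fold change was 2.63 (SE 0.47, edgeR adjusted p = 0.00942), and the set B controls rested on 7 and 3 reads.

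Cd34, a sialomucin of endothelial and progenitor cells, had 6.71, 7.13 and 13.1 CPM in cKO retinas, against 2.65, 3.17 and 4.11 CPM in control retinas. The groups were apart, with a log2 fold change of 1.63 (SE 0.19, edgeR adjusted p = 0.00155). Emcn, the sialomucin of capillary and venous endothelium, and Plvap, which forms the diaphragms of fenestrated endothelium, rose by 1.88 and 1.27 on the log2 scale (edgeR adjusted p = 0.0128 and 0.0381), without overlap of groups. Icam2, an endothelial adhesion molecule, was counted at 30, 30 and 1 reads in cKO libraries and at 7, 3 and 6 reads in control libraries. It was highest in cKO 1 and cKO 2 and lowest in cKO 3.

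Of the 7 endothelial receptors 6 rose. Tek and Tie1 are the receptor pair of the angiopoietin pathway. Tie1 had 2.98, 3.81 and 4.87 CPM in cKO retinas, against 1.2, 0.688 and 0.696 CPM in control retinas. Tek had 1.77, 2.39 and 3.75 CPM in cKO retinas and 0.546, 1.08 and 0.630 CPM in control retinas. Neither gene overlapped between groups, and the log2 fold changes were 2.13 (SE 0.32, edgeR adjusted p = 0.00499) for Tie1 and 2.03 (SE 0.31, edgeR adjusted p = 0.00518) for Tek. Ptprb, the phosphatase that opposes Tek signalling, reached 2.04, 2.63 and 8.34 CPM in cKO retinas, against 0.590, 2.12 and 1.52 CPM in control retinas. Here cKO 1 lay below control 3, but within each set the cKO libraries were above the controls, and the log2 fold change was 2.10 (SE 0.25, edgeR adjusted p = 0.00204).

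Eng and Acvrl1 form the endothelial receptor complex for BMP9 and BMP10, and both rose. Eng had 3.89, 7.28 and 5.21 CPM in cKO retinas, against 1.53, 1.26 and 1.03 CPM in control retinas, a log2 fold change of 2.02 (SE 0.29, edgeR adjusted p = 0.00430). In contrast to most members, its highest library was cKO 2 and not cKO 3. Acvrl1 changed less, by 1.14 (SE 0.30, edgeR adjusted p = 0.0404), with means of 2.32 ± 0.419 CPM in cKO retinas and 1.01 ± 0.268 CPM in control retinas (SD, n = 3 each). Robo4, a guidance receptor that stabilises endothelium, had the largest change of the receptors. It met the filter on low counts only through the cKO libraries. It was at 1.89, 2.79 and 3.44 CPM in cKO retinas, against 0.372, 0.180 and 0.596 CPM in control retinas, with no overlap and a log2 fold change of 2.92 (SE 0.42, edgeR adjusted p = 0.00411). Ramp2, the co-receptor for adrenomedullin, did not pass the test, at 0.72 (95% interval 0.08 to 1.36, edgeR adjusted p = 0.144), although its 3 cKO libraries at 1.96 to 2.79 CPM were above the controls at 1.13 to 1.84 CPM. Its exons overlap those of Vps25 on the same strand.

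Of the matrix and secreted proteins, Mmrn2, an endothelial matrix glycoprotein, rose and Egfl7, a secreted endothelial factor, did not pass. Mmrn2 had 1.55, 2.43 and 4.97 CPM in cKO retinas, against 0.678, 0.239 and 0.762 CPM in control retinas. Its log2 fold change was 2.45 (SE 0.49, edgeR adjusted p = 0.0138), and the difference was 1.5 within set A and 3.50 within set B. Egfl7 had 10, 9.13 and 4.70 CPM in cKO retinas and 7.85, 2.48 and 2.68 CPM in control retinas, with groups that overlapped and a log2 fold change of 0.55 (SE 0.18, edgeR adjusted p = 0.0880). Some exons of Egfl7 are shared with other annotated genes, the microRNA Mir126a among them.

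Of the 5 endothelial transcription factors 4 rose. Of these 5, Erg, Sox7, Sox17 and Sox18 met the filter on low counts only through the cKO libraries, and Fli1 would have met it on the controls alone. Erg, the ETS factor that maintains endothelial identity, had 0.482, 0.442 and 4.02 CPM in cKO retinas, against 0.0656, 0.209 and 0.232 CPM in control retinas. The groups did not overlap, but cKO 3 was far above cKO 1 and cKO 2. The log2 fold change was 3.81 (SE 0.42, edgeR adjusted p = 0.00123), from 27, 32 and 118 reads in cKO libraries and 3, 7 and 7 reads in control libraries. Fli1, a related ETS factor of endothelial and blood cells, had 1.25, 1.29 and 5.89 CPM in cKO retinas and 0.262, 0.688 and 0.762 CPM in control retinas. It showed the same shape, with cKO 3 highest and no overlap, and a log2 fold change of 2.73 (SE 0.30, edgeR adjusted p = 0.00118).

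The SoxF factors Sox7, Sox17 and Sox18 act in endothelial fate and arterial identity. Sox17 had 0.750, 0.567 and 1.60 CPM in cKO retinas, against 0.153, 0 and 0.199 CPM in control retinas, a log2 fold change of 3.09 (SE 0.69, edgeR adjusted p = 0.0226). No read was counted in control 3, and Sox17 shares exon sequence with the annotated gene Gm37587. Sox7 rose by 1.86 (SE 0.51, edgeR adjusted p = 0.0468). Sox18 was 1.42 higher (SE 0.48) without passing the test (edgeR adjusted p = 0.0918), at 0.339, 0.484 and 1.06 CPM in cKO retinas and 0.262, 0.180 and 0.298 CPM in control retinas. Its groups did not overlap, yet cKO 1 was within 0.1 CPM of control 4.

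Promoter sequences are shown for members whose window lies within 500 bases of the GENCODE start and holds letters of the ETS binding motif, since the ETS factors Erg and Fli1 rose, and for Erg itself. They come from RefSeq on GRCm38.p6 and run from 250 bases before to 50 bases after the gene start, read 5′ to 3′ on the gene's strand. Of the 37 members 19 had an entry, of which the window nearest to the GENCODE start was read, and 17 of these started within 500 bases of it. The 7-letter motifs searched were CAGGAAG and CCGGAAG on both strands, which share 6 letters. Either was present in 5 of the 19 members (26.3%) and in 20.9% of 32851 promoter windows. The fifth member was Egfl7, whose nearest window starts 1069 bases away and holds 2 matches, and it is not shown. The matches to CAGGAAG or its reverse complement are in capitals. The Erg window shown has none, while 1 of its windows farther off, 127245 bases away, has 1 match.
Robo4: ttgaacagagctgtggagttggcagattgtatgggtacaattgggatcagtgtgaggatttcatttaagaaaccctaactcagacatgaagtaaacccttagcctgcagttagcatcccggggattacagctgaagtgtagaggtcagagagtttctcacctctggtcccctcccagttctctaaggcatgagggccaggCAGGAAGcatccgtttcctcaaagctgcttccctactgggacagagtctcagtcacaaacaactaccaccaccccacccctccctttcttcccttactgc
Cd34: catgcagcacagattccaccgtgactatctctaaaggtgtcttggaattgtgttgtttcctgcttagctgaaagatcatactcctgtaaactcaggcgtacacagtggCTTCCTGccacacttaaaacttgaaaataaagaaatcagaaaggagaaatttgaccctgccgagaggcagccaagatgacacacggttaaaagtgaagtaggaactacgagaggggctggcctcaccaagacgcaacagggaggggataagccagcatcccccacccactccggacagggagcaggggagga
Emcn: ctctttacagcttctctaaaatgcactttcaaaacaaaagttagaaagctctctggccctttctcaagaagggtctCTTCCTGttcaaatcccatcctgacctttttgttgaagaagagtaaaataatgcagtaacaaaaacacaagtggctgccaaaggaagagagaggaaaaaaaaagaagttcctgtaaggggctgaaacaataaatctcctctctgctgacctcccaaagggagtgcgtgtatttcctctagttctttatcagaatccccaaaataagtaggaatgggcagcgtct
Apln: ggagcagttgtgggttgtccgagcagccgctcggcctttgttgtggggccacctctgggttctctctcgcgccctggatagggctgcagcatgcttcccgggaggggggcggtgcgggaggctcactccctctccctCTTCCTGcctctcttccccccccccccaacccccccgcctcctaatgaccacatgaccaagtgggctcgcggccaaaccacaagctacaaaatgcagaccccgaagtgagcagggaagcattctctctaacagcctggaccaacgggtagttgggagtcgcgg
Erg: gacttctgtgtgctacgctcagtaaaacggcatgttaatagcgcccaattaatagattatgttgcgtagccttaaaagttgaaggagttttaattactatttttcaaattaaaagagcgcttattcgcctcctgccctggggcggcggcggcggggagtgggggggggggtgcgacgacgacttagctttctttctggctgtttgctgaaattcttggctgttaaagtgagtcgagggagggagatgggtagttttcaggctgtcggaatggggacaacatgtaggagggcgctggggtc
The windows are chr9:37401722-37402021 on the plus strand for Robo4, chr1:194938571-194938870 on the plus strand for Cd34, chr3:137340828-137341127 on the plus strand for Emcn, chrX:48034804-48035103 on the minus strand for Apln, and chr16:95586544-95586843 on the minus strand for Erg. The match starts 50 bases before the gene start in Robo4, 113 before it in Apln, 142 before it in Cd34 and 174 before it in Emcn. Robo4, Cd34 and Emcn rose in cKO retinas, and so did Erg with no match in its nearest window, while Apln and Egfl7 with matches did not pass the test. The SoxF letters ACAATG or ACAAAG, 6 letters long and searched on both strands, were in 5 of 19 members and in 28.6% of all windows.

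Genes of the blood-retina barrier did not move together, with 1 of 3 tested members called. That member, Abcb1a, met the filter on low counts only through the cKO libraries. Abcb1a, the efflux pump P-glycoprotein of barrier endothelium, had 0.678, 1.23 and 6.03 CPM in cKO retinas, against 0.0656, 0.658 and 0.530 CPM in control retinas. All cKO libraries were above all controls, narrowly for cKO 1, and the log2 fold change was 3.45 (SE 0.38, edgeR adjusted p = 0.00120), and set A alone gave 3.59 and set B alone 3.33. Exons of Abcb1a overlap those of an annotated gene on the opposite strand, over 553 bases. Cldn5, the tight-junction claudin, had 13, 13.1 and 9.87 CPM in cKO retinas and 16.4, 8.59 and 9.91 CPM in control retinas. The highest and the lowest values were both controls, and the log2 fold change was −0.13 (95% interval −0.45 to 0.19, edgeR adjusted p = 0.616). The upper bound of 0.19 lies below the lower bound for Cdh5, which was 1.51. Mfsd2a, the lipid transporter that restrains transcytosis, had 6.84, 8.22 and 5.28 CPM in cKO retinas and 6.67, 2.63 and 2.49 CPM in control retinas, and did not pass (0.58, edgeR adjusted p = 0.131). Slco1a4, an organic anion transporter, had at most 5 reads in any library.

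Of the tip cell genes, Esm1 (endocan), a secreted proteoglycan of tip cells, rose. It met the filter on low counts only through the cKO libraries. It had 0.375, 0.401 and 1.53 CPM in cKO retinas, against 0.0437, 0.0299 and 0.0331 CPM in control retinas. All 3 cKO libraries, with 21, 29 and 45 reads, were above all 3 controls, which held 2, 1 and 1 reads. The log2 fold change of 4.58 had a 95% interval from 3.21 to 5.95 (edgeR adjusted p = 0.00278). Angpt2, the ligand that opposes Angpt1 at Tek, had 8.93, 11.3 and 8.03 CPM in cKO retinas and 7.19, 7.54 and 5.70 CPM in control retinas. The groups did not overlap, but the gene did not pass the test (0.39, 95% interval −0.01 to 0.79, edgeR adjusted p = 0.206). Apln, the ligand of the apelin receptor, had 1.13, 1.71 and 0.681 CPM in cKO retinas, against 2.56, 0.898 and 0.630 CPM in control retinas. Control 2 was highest and control 4 lowest, and the log2 fold change was −0.58 (95% interval −1.32 to 0.17, edgeR adjusted p = 0.315).

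**Figure D2:**
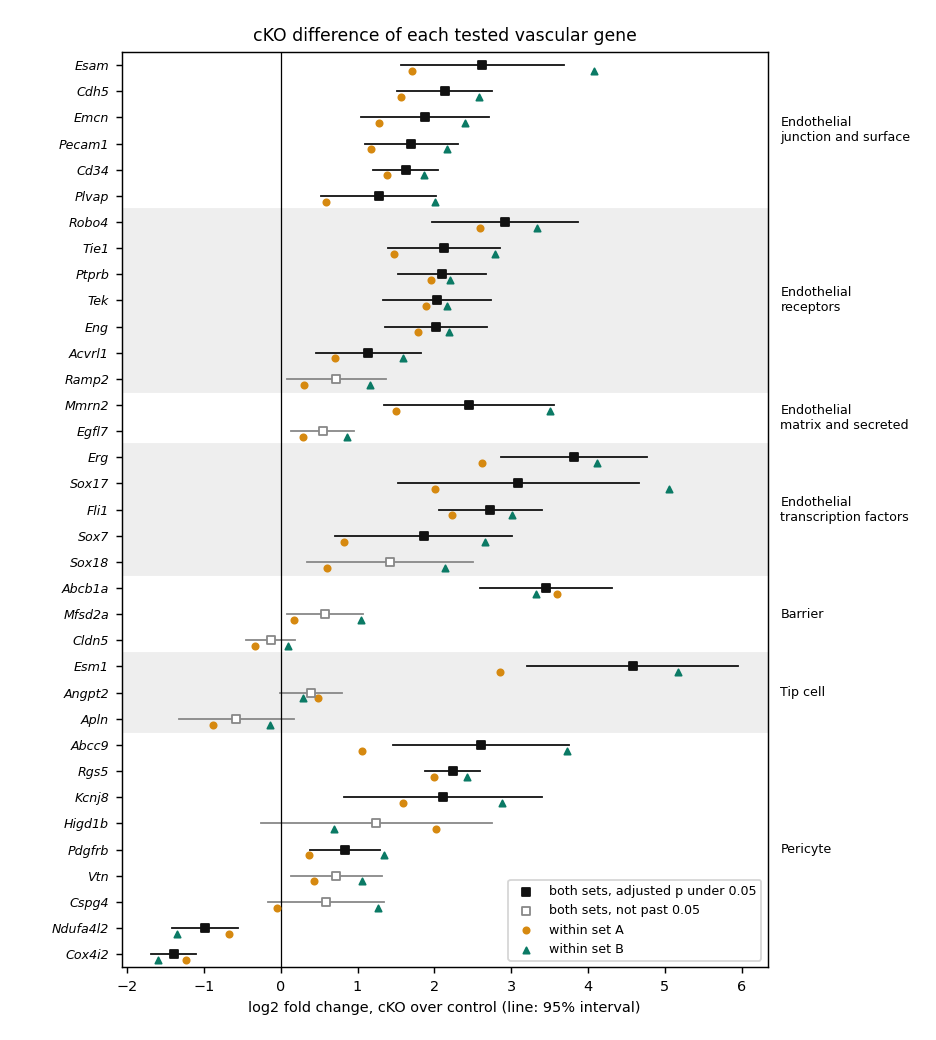
Log2 fold change of cKO over control for the tested vascular genes with library set in the model, with lines for the 95% interval, filled squares for genes past the test and open squares for the others, and the same difference within set A (circles) and within set B (triangles). Endothelial genes lie mostly right of 0, up to 3.81 for Erg, Cldn5 lies at −0.13, and Ndufa4l2 and Cox4i2 lie left of 0 at −0.98 and −1.39.

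The genes listed as pericyte markers split, and which cells supplied their RNA was not tested. Rgs5, a G protein signalling regulator abundant in pericytes, had 17.6, 25.2 and 95.3 CPM in cKO retinas, against 5.29, 18.6 and 17.0 CPM in control retinas. The groups overlapped through cKO 1 and control 3, while within each set every cKO library was above every control. The log2 fold change was 2.24 (SE 0.16, edgeR adjusted p = 0.000111), and the sets alone gave 1.99 (A) and 2.42 (B). Pdgfrb, the receptor by which pericytes follow PDGF-B, was at 13.2, 13.8 and 12.6 CPM in cKO retinas, against 10.4, 4.73 and 5.14 CPM in control retinas. It rose by 0.84 (SE 0.20, edgeR adjusted p = 0.0296), with little spread among cKO libraries and with control 2 close below them.

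Kcnj8 and Abcc9 encode the pore and the sulfonylurea receptor of the ATP-sensitive potassium channel of vessels. They are neighbours 16.2 kb apart on chromosome 6 of GRCm38, Kcnj8 at chr6:142564837-142571614 and Abcc9 at chr6:142587862-142702315, both on the minus strand. Kcnj8 had 0.553, 1.01 and 1.19 CPM in cKO retinas and 0.240, 0.0598 and 0.364 CPM in control retinas. Abcc9 had 1.07, 1.53 and 12.9 CPM in cKO retinas, against 0.612, 0.838 and 1.13 CPM in control retinas. Kcnj8 was higher in each cKO library than in any control, whereas in Abcc9 cKO 1 lay under control 4 and cKO 3 stood far above the rest. The log2 fold changes were 2.11 (SE 0.57, edgeR adjusted p = 0.0446) for Kcnj8 and 2.61 (SE 0.51, edgeR adjusted p = 0.0127) for Abcc9, which was 1.05 in set A and 3.72 in set B. Exons of Abcc9 overlap those of an annotated antisense gene over 158 bases.

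Cspg4 (the proteoglycan NG2), Vtn (vitronectin) and Higd1b, a mitochondrial protein used as a pericyte marker, did not pass the test. Their log2 fold changes were 0.59, 0.72 and 1.25 (edgeR adjusted p = 0.302, 0.112 and 0.277). Vtn had 3.86, 3.28 and 4.70 CPM in cKO retinas, against 2.62, 1.77 and 2.88 CPM in control retinas, so its groups did not overlap. Cspg4 was at 1.32 to 2.52 CPM in cKO retinas and 1.02 to 1.51 CPM in control retinas, and Higd1b at 0.272 to 0.750 CPM in cKO retinas and 0.0663 to 0.389 CPM in control retinas, both with overlap.

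The 2 members that fell, Cox4i2 and Ndufa4l2, encode mitochondrial proteins linked to respiration at low oxygen. Cox4i2, an isoform of a cytochrome c oxidase subunit, had 20.7, 21.7 and 7.05 CPM in cKO retinas, against 49.7, 23.3 and 19.4 CPM in control retinas. Ndufa4l2 had 33.1, 48.4 and 17.8 CPM in cKO retinas, against 64.0, 44.8 and 46.2 CPM in control retinas. In both genes the groups overlapped over all libraries, cKO 3 was lowest and control 2 highest. The log2 fold changes were −1.39 (SE 0.13, edgeR adjusted p = 0.000483) for Cox4i2 and −0.98 (SE 0.19, edgeR adjusted p = 0.0121) for Ndufa4l2. Of 17 genes of the hypoxia response, such as Vegfa, none was called by edgeR. At an unadjusted p under 0.05 there were 2 for a rise and 1 for a fall, against 13.3% and 13% of all genes tested. The median difference of the 17 hypoxia genes was 0.25 within set A and −0.13 within set B. The sign was the same in both sets for 7 of them, against 67.6% of all genes tested.

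Per kilobase of exon, these last genes were the most abundant members. Ndufa4l2 averaged 30.2 ± 14 CPM per kb in cKO retinas and 47.2 ± 9.79 CPM per kb in control retinas (SD, n = 3 each). Cox4i2 averaged 20.9 ± 10.4 CPM per kb in cKO retinas and 39.1 ± 20.9 CPM per kb in control retinas, a difference of means smaller than the control SD. Next in the mean over all libraries came Cldn5, at 8.47 ± 1.30 CPM per kb in cKO retinas and 8.22 ± 2.97 CPM per kb in control retinas, and Rgs5, at 10.1 ± 9.42 CPM per kb in cKO retinas and 3.00 ± 1.60 CPM per kb in control retinas. Those 4 were the only members above the median level of all genes tested. By that mean Ndufa4l2 and Cox4i2 were at percentiles 92.5 and 89.7, Cldn5 at 64.1 and Rgs5 at 58.0. Which retinal cells supplied their RNA was not tested. Cdh5 averaged 2.55 ± 2.16 CPM per kb in cKO retinas and 0.704 ± 0.258 CPM per kb in control retinas, which placed it at percentile 30.8 of tested genes by its mean over all libraries.

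**Figure D3:**
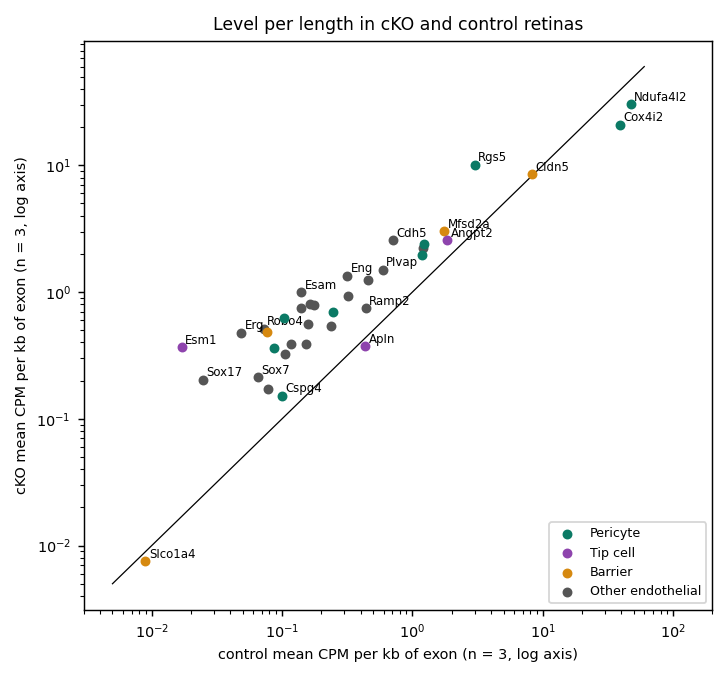
Mean level per kilobase of exon in cKO retinas (vertical, CPM per kb, log axis) against control retinas (horizontal, CPM per kb, log axis), n = 3 each, with the line of equal levels and a colour for each role. Most members lie above the line at low levels, Cldn5 lies on it at 8.47 in cKO and 8.22 in control, and Ndufa4l2 and Cox4i2 lie below it.

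The size of the change differed between libraries. Of the 37 members 24 had their highest level in cKO 3, which was also the highest library for 20 of the 23 that rose. The share of all genes highest in cKO 3 was not counted, so this cannot be read as a trait of the members. Library set itself also differed widely. With genotype in the model, 11 members were higher and 7 lower in set B (edgeR adjusted p under 0.05), against 5431 and 5206 of 16691 genes. The endothelial genes summed to 73.5, 87.7 and 129 CPM in cKO retinas, against 49.6, 33.5 and 37 CPM in control retinas, with no overlap. The 5 transcription factors summed to 3.16, 3.15 and 14 CPM in cKO retinas, against 0.940, 1.23 and 1.79 CPM in control retinas. The pericyte genes summed to 92.2, 117 and 154 CPM in cKO retinas, against 134.5, 95.4 and 93.2 CPM in control retinas, so these sums, which Ndufa4l2 and Cox4i2 dominate in control 2, overlapped. With each pericyte gene given equal weight, as the mean of centred log2 values, the groups did not overlap, at 0.05, 0.27 and 0.49 in cKO retinas and −0.18, −0.35 and −0.28 in control retinas. Tip cell genes summed to 10.4, 13.4 and 10.3 CPM in cKO retinas and 9.79, 8.47 and 6.36 CPM in control retinas.

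**Figure D4:**
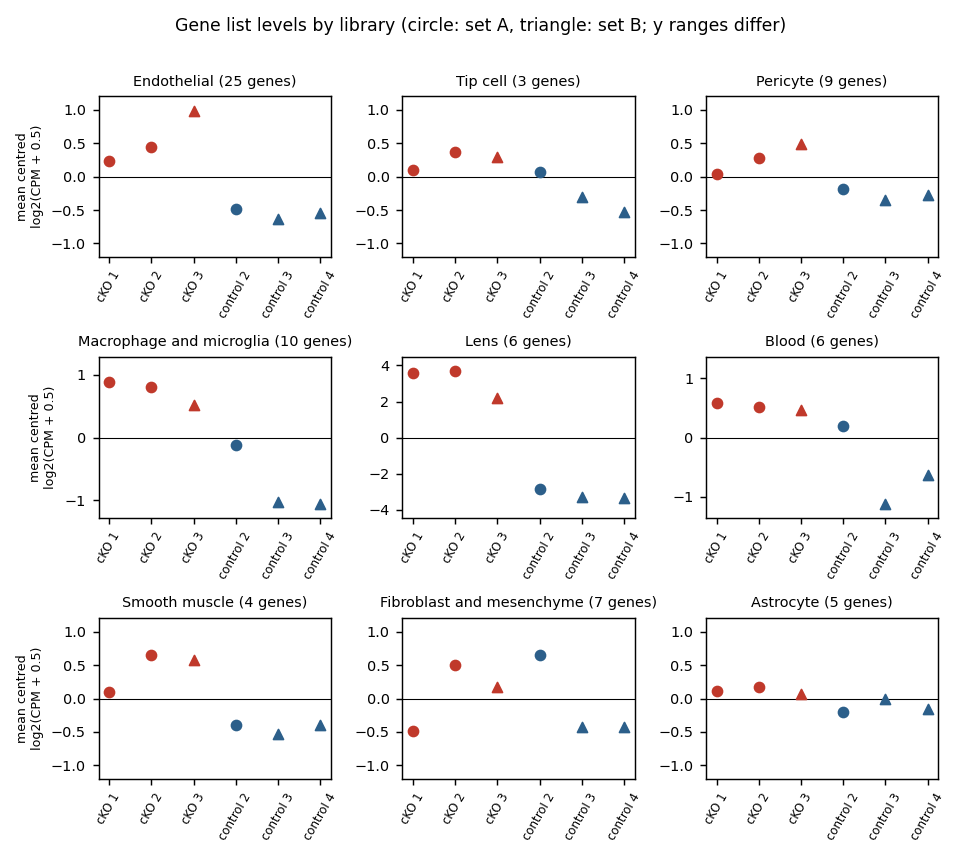
Mean centred log2(CPM + 0.5) of each gene list in each library (vertical, ranges differ between panels), for endothelial, tip cell and pericyte genes in the top panels and for markers of other cells below, with cKO in red, control in blue, set A as circles and set B as triangles. Endothelial genes lie between 0.23 and 0.99 in cKO libraries and between −0.63 and −0.49 in control libraries with cKO 3 highest, whereas lens genes are lowest among cKO libraries in cKO 3, at 2.20.

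The direction held within both sets more often than the calls did. The cKO difference had the same sign in set A and set B for 33 of 35 members, against 67.6% of all genes tested. The exceptions were Cldn5 and Cspg4. In set A the control was male and the cKO libraries were female, so genotype and sex cannot be told apart there. The median difference of the members was 1.28 in set A and 2.17 in set B. No member's difference passed a test of the interaction between set and genotype (edgeR adjusted p, where 0.024% of all genes passed). At an unadjusted p under 0.05 there were 8 members. The share of all genes at that level was not counted, so the 8 cannot be read as agreement or difference between sets. Over all 6 libraries, the groups did not overlap and cKO was higher in 24 of 37 members, where 8.38% of tested genes behaved so. cKO was lower without overlap in 0 members, against 5.54% of tested genes. The counts and medians of this paragraph include the 11 members that met the filter on low counts only through the cKO libraries. Those members had to be higher there to be tested, so their part in these counts is no separate evidence. Counts without them are not given here.

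The calls rest on the set term and on cKO 3. With genotype alone in the model no member was called by edgeR, where 0.216% of genes were, and 20 members, all among the 23, had an unadjusted p under 0.05, against 4.98% of genes for a rise. Without cKO 3, which leaves cKO 1 and cKO 2 against control 2, the fit called Cd34, Abcb1a and Rgs5 higher and Cox4i2 lower, where 1.02% of genes were higher and 0.78% lower. There the median log2 fold change of 36 members was 1.38 and 31 were positive. Over all genes tested there the median was 0.03, and 9249 of 17182 were positive. The lone control is assumed to vary like the other libraries. Control 2 was male and cKO 1 and cKO 2 were female, so this fit cannot separate genotype from sex. Without control 2, which leaves cKO 3 against control 3 and control 4, 21 of 36 members rose and 2 fell, where 3.26% of genes rose and 0.991% fell.

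With sex added as a second term, 9 members rose (Cdh5, Cd34, Robo4, Mmrn2, Erg, Fli1, Sox17, Abcb1a and Rgs5) and Cox4i2 fell, where 1.04% of genes rose and 0.377% fell. This fit leaves 2 residual degrees of freedom, and no cKO library was male. Within a set, only cKO 3 and control 3 were of the same sex across groups. Plvap, Acvrl1, Sox7, Pdgfrb, Kcnj8 and Abcc9 also lost their call without control 3 (edgeR adjusted p = 0.107, 0.0999, 0.124, 0.0874, 0.0741 and 0.0549) and without control 4 (edgeR adjusted p = 0.0948, 0.0935, 0.108, 0.0754, 0.0522 and 0.0506). Ndufa4l2 lost its call without control 3 (edgeR adjusted p = 0.0519). Without control 2, Acvrl1 and Kcnj8 lost theirs (edgeR adjusted p = 0.0588 and 0.119). Without cKO 2, Acvrl1, Sox7 and Kcnj8 lost theirs (edgeR adjusted p = 0.110, 0.0944 and 0.116), and without cKO 1 Sox7 did (edgeR adjusted p = 0.0553).

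Other genes of the vessel wall came from lists assembled with earlier results of these data known. With library set in the model, where 6.36% of all genes tested rose and 5.63% fell, 12 of 29 tested further endothelial genes rose and 2 fell, with a median log2 fold change of 0.56, against −0.00 for all genes tested. The adhesion receptor Adgrf5 had 2.18, 3.44 and 17.7 CPM in cKO retinas and 0.590, 1.56 and 1.72 CPM in control retinas. Its log2 fold change was 2.96 (edgeR adjusted p = 0.000977), and that of Cd93, an endothelial lectin-like receptor, was 2.75 (edgeR adjusted p = 0.00120). Both were highest in cKO 3. Stab1, a scavenger receptor of sinusoidal endothelium and macrophages, rose by 2.03 (edgeR adjusted p = 0.00106), and was highest in cKO 1. Of 16 tested further mural cell genes 6 rose and none fell. An unadjusted p under 0.05 for a fall was found for 3, and for 13% of all genes tested. Ebf1, a transcription factor of mural cells and other lineages, had 83.2, 87.3 and 232 CPM in cKO retinas and 55.8, 115 and 104 CPM in control retinas. The groups overlapped, and its log2 fold change was 0.85 (edgeR adjusted p = 0.00280). Acta2, the smooth muscle actin, had 2.07, 3.91 and 4.22 CPM in cKO retinas and 0.656, 0.120 and 0.364 CPM in control retinas, a log2 fold change of 3.07 (edgeR adjusted p = 0.00712). Foxf2, a transcription factor of brain pericytes, rose by 2.76 (edgeR adjusted p = 0.00728), with no overlap of groups. Without cKO 3, 3 further endothelial genes and 1 further mural gene rose and none fell, and with sex added 4 and 1 rose and none fell. With genotype alone edgeR called none in either list. There 12 further endothelial and 5 further mural genes had an unadjusted p under 0.05 for a rise, as did 4.98% of all genes.

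Counts for the signalling, tip cell, and arterial and venous lists are to be read against the same 6.36% and 5.63% of all genes. Of 26 tested angiogenic signalling genes 8 rose and 6 fell, of 12 further tip cell genes 4 rose and 1 fell, of 10 arterial and venous genes 5 rose and none fell, and of 15 genes of Norrin and Wnt signalling 2 rose and 1 fell. Kdr, Flt4 and Unc5b count in both the angiogenic and the tip cell list. Without cKO 3, edgeR called 1 angiogenic gene higher and 1 lower, 1 tip cell gene higher, and no arterial, venous or Norrin and Wnt gene. There 6 arterial and venous genes had an unadjusted p under 0.05 for a rise and 2 Norrin and Wnt genes in each direction. Of all 17182 genes tested there, 1407 had such a p for a rise and 1356 for a fall. Without control 2, the angiogenic counts were 6 higher and 0 lower, with 4 at an unadjusted p under 0.05 for a fall. Of all 16946 genes tested there, 1332 had such a p for a fall. With sex added, edgeR called 1 Norrin and Wnt gene lower and no other gene of these 4 lists. Of the angiogenic genes 7 then had an unadjusted p under 0.05 for a rise and 6 for a fall, and of the tip cell genes 6 and 1. Of the arterial and venous genes it was 5 and 0, and of the Norrin and Wnt genes 3 and 3. Of all 16691 genes tested, 1611 had such a p for a rise and 1211 for a fall. With genotype alone edgeR called none. The unadjusted counts of the 4 lists were then 8 and 2, 5 and 1, 4 and 0, and 2 and 1, in the same order. Of all genes 4.98% had such a p for a rise and 2.76% for a fall. Kdr (the VEGF receptor VEGFR2), which retinal neurons and progenitors also express, had 240, 358 and 424 CPM in cKO retinas, against 509, 683 and 659 CPM in control retinas. Every cKO library was below every control, a log2 fold change of −0.71 (SE 0.14, edgeR adjusted p = 0.0138). Flt4, the receptor VEGFR3 of tip cells and lymphatics, had 1.37, 1.60 and 4.90 CPM in cKO retinas and 0.612, 0.688 and 0.398 CPM in control retinas, and rose by 2.26 (edgeR adjusted p = 0.0115). Nrp2, a co-receptor for VEGF-C, had 33.1, 43.8 and 45.7 CPM in cKO retinas and 20.9, 26.2 and 26.3 CPM in control retinas, without overlap, and rose by 0.84 (edgeR adjusted p = 0.00427). Unc5b, a netrin receptor of tip cells, rose by 1.54 (edgeR adjusted p = 0.00163) and Vwf, the von Willebrand factor of endothelium, by 2.15 (edgeR adjusted p = 0.00586), both without overlap of groups. Dll4, the Notch ligand that restrains tip cell number, fell by 0.77 on the log2 scale (edgeR adjusted p = 0.00361), with overlap over all libraries. Apcdd1, a Wnt target and inhibitor, had 29.3, 32.9 and 31.6 CPM in cKO retinas and 19.0, 9.06 and 10.9 CPM in control retinas, and rose by 1.17 (edgeR adjusted p = 0.00713). Foxq1, a transcription factor of brain endothelium, rose by 3.08 (edgeR adjusted p = 0.00895) from at most 29 reads per library. Adgra2 (GPR124), the co-receptor for Wnt7 in brain endothelium, had 11.8, 12.5 and 12.1 CPM in cKO retinas, against 21.9, 27.7 and 20.2 CPM in control retinas, and fell by 0.92 on the log2 scale (edgeR adjusted p = 0.00571).

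Several lists of markers of other cells also held genes that rose, in the same fit in which 6.36% of all genes rose. All 6 lens genes rose and summed to 1833, 1970 and 751 CPM in cKO retinas, against 3.74, 1.65 and 2.15 CPM in control retinas. Among cKO libraries their sum was lowest in cKO 3, where the endothelial sum was highest. Of 10 macrophage and microglia genes 9 rose, at 80.5, 79.8 and 66.2 CPM in sum in cKO retinas and 18.1 to 37.8 CPM in control retinas. Of 4 tested blood genes 2 rose, at 22.4, 20.5 and 18.7 CPM in sum in cKO retinas. Controls were at 0.598 to 12.4 CPM, with control 2 highest. The macrophage and blood sums, like the lens sum, were lowest among cKO libraries in cKO 3. Of 4 smooth muscle genes 1 rose (6.39 to 9.73 CPM in cKO retinas, 2.87 to 3.28 CPM in control retinas). Of 4 lymphatic genes 2 rose, while their sums overlapped (150 to 209 CPM in cKO retinas, 152.5 to 236 CPM in control retinas). Without cKO 3, edgeR called 6 lens genes and 2 macrophage genes higher, and none of the blood, smooth muscle and lymphatic genes, with 2, 2 and 3 of these at an unadjusted p under 0.05 for a rise. With sex added it called 6 lens genes, 1 blood gene and 1 smooth muscle gene higher, and no macrophage or lymphatic gene, with 9 and 2 of these at an unadjusted p under 0.05 for a rise. With genotype alone it called 5 lens genes higher and none of the others. There 6 macrophage, 2 blood, 2 smooth muscle and 2 lymphatic genes had an unadjusted p under 0.05 for a rise. Over all genes, such a p for a rise was found in 1407 of 17182 without cKO 3 and 1611 of 16691 with sex. With genotype alone it was found in 4.98%.

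Fibroblast genes summed to 23.6 to 48.0 CPM in cKO retinas and 41.0 to 42.9 CPM in control retinas. None of 6 tested was called by edgeR at an adjusted or an unadjusted p under 0.05 with library set in the model. That result joins opposite differences, since the median of the fibroblast genes was −1.27 within set A and 1.22 within set B. Only 1 of the 6 had the same sign in both sets. Of 5 astrocyte genes 1 rose (70.5 to 78.7 CPM in cKO retinas, 63.0 to 80.9 CPM in control retinas). None of 5 tested pigment epithelium genes and 2 tested platelet genes was called by edgeR, with 1 of each at an unadjusted p under 0.05, at 10.1 to 27.4 and 2.28 to 5.39 CPM in cKO retinas and 4.04 to 13.5 and 1.38 to 2.95 CPM in control retinas. The lists share genes, with Lyve1 in the macrophage and lymphatic lists, Pf4 in the macrophage and platelet lists and Pdgfra in the astrocyte and fibroblast lists. Likewise, Flt4 is in the lymphatic and tip cell lists and Acta2 in the smooth muscle and mural lists. No marker in these lists was at 0 reads in all libraries. The part of lens, macrophage, blood and smooth muscle tissue in the vascular results was not tested.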

How the data were processed

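Per the labels' protocols, RNA was extracted from flash-frozen retinas with Qiagen RNeasy and libraries were made with the Illumina TruSeq RNA kit. The deposited files hold raw read counts per Ensembl gene, 1 file per library. STAR, HTSeq, edgeR and GRCm38 are named in the submitters' processing notes without versions, and whether counting used strand was not given in the sources used here. Reads of overlapping genes cannot be separated. The 5 entries of each file that name no gene, 26.4% to 28.8% of all counts, were left out of library sizes. Symbols came from GENCODE on GRCm38 for 37607 of 39179 identifiers (96.0%).

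Counts were fitted with edgeR 4.0.16 in R 4.3.3 (TMM scaling, filterByExpr by group, glmQLFit and glmQLFTest) with library set and genotype as terms, all 6 libraries and Benjamini-Hochberg adjustment over 16691 genes. CPM are TMM-scaled, and differences within a set and centred log2 values add a prior count of 0.5. Alternatives were DESeq2 1.42.0, limma 3.58.1 (voom), other scalings, filters and terms, and leaving out each library. On simulated counts with this design, 85 of 100 genes changed 2-fold and 56 of 100 changed 1.5-fold were recovered, and 14.6% of calls were false.

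The 37 members and all lists were chosen with earlier results of these data known. Every member was named, and from other vascular lists up to 4 genes of smallest p past the threshold with the same sign in both sets; Vegfa and marker genes serve to describe their list. The line of 2.9% ambiguous counts and the sex assigned from Y-linked genes are from the files, not the labels. Libraries of each pair differed beyond counting noise. The labels do not name separate litters or extractions, so p-values measure the spread between these samples. A further neural retina marker of the planned list is not reported here.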

Additional observations from a re-analysis of the deposited data

How the results depend on the processing

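The count of 23 members that rose and 2 that fell became 0 and 0 with no library set term and 9 and 1 with library set and sex. Leaving out each library gave 3 to 22 that rose and 1 to 2 that fell, with 3 and 1 without cKO 3. Over all genes the counts that rose and fell, 1062 and 939 with library set, were 36 and 0 with no library set term, 173 and 63 with sex, 1471 and 1592 with no filter, 1204 and 1672 with DESeq2, and 176 to 1371 and 134 to 1336 without 1 library. RLE scaling and no scaling beyond totals each left 23 and 2 members, DESeq2 22 and 2, limma-voom 18 and 2, and a mean of at least 1 CPM 18 and 2 of 28 tested. No called member changed sign under any of these settings. With no scaling the split over all genes was 1252 and 800, and with RLE 949 and 1214. The labels' numbers are shared by cKO and control for 2 and 3 only, with correlations of deviations of 0.77 and 0.67, against 0.71 and 0.67 for same-set libraries with other numbers, so number and set cannot be told apart. A replicate block in place of library set gave 18 and 2 members, and 1007 and 1033 genes. Depth limits Icam2, Slco1a4, Esm1 and the SoxF genes, which had few reads. The cause of these shifts was not tested.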
